A study of Mus musculus with 48 samples.

Results

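Replication-dependent histone genes lie in clusters and encode the bulk of the H1, H2A, H2B, H3 and H4 proteins of the nucleosome. The members described here were the protein-coding genes whose symbol begins with Hist1h, Hist2h, Hist3h or Hist4h in the mouse GENCODE M21 annotation. That rule, which used no measured value, found 67 genes, and 65 of them had a row among the 48526 genes of the count table. Hist1h2bm and Hist1h2bh had none and were not analysed here. The 65 comprised 6 H1, 18 H2A, 16 H2B, 12 H3 and 13 H4 genes. Of the 67, 54 lie in the Hist1 cluster on chromosome 13, 10 in the Hist2 cluster on chromosome 3, 2 in the Hist3 cluster on chromosome 11 and 1, Hist4h4, on chromosome 6.

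RNA came from the cortex of 12 male wild-type C57BL/6JRj mice, with 4 animals at 3 weeks (3w), 4 at 5 months (5m) and 4 at 18 months (18m). The middle age is given as 6 months in the sample labels and as 5 months in the protocol. Each animal gave 4 libraries. These were the total homogenate (input_TH), the material from that homogenate that sedimented through a sucrose cushion with cycloheximide present (SC_TH), the synaptosome fraction (input_SYN) and the pellet of the synaptosome fraction (SC_SYN). Ribosomes and other dense particles sediment through such a cushion, and synaptosomes are pinched-off nerve endings that other membranes and cell fragments accompany. The design asks how the RNA in each fraction changed with age, how each pellet differed from its input, and how synaptosomes differed from homogenate. These were bulk tissue samples, so fewer cells of a type and less RNA per cell cannot be told apart.

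Histone mRNA from these genes is made mainly in S phase, when a cell replicates its DNA and needs new nucleosomes. Instead of a poly(A) tail most of these mRNAs end in a short stem-loop. That stem-loop is bound by SLBP and cut with the help of the U7 particle, and it promotes both translation and, once replication stops, rapid decay. Some members also make polyadenylated transcripts in cells that no longer divide. The libraries were prepared by depletion of ribosomal RNA rather than by selection for poly(A), so both forms could be counted.

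The stem-loop was sought as an unbroken run of GGNNCT, the loop NTTN and AGNNCC, on the RNA strand only, in the 150 annotated bases after the stop codon. It was found for 44 members, starting 22 to 59 bases after the stop, and for 3 of 19322 other protein-coding genes (0.016%). Only 52 members have at least 20 annotated bases after the stop, and a shorter stretch could not hold a match at these distances. The following stretches, read from GRCm38 and written 5′ to 3′ on the gene's strand with the matched 16 bases in capitals, belong to members described below. The search fixed most of the 16 bases and required the arms to pair, so the likeness of these stretches between histone types was set in advance.
Hist1h1c (chr13:23739512-23739527, plus strand): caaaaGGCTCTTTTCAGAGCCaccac
Hist1h1e (chr13:23621782-23621797, minus strand): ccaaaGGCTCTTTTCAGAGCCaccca
Hist2h2ac (chr3:96220418-96220433, minus strand): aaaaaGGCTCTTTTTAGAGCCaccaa
Hist1h3c (chr13:23745047-23745062, minus strand): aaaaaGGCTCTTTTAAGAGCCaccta
Hist1h4d (chr13:23581950-23581965, plus strand): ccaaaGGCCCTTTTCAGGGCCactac
Hist1h4h (chr13:23531458-23531473, plus strand): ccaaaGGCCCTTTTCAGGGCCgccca
Hist1h4b (chr13:23757366-23757381, plus strand): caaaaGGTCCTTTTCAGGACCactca
Hist4h4 (chr6:136803998-136804013, minus strand): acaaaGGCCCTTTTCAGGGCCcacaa
Hist2h2be, an H2B gene at chr3:96221119-96223738 on the plus strand, had no match. Its single annotated exon carries a 3′ UTR of 2192 bases that holds the polyadenylation hexamer AATAAA.

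The members took 254062 of all counts, or 0.064%, and between 874 and 14311 counts in a library. Library totals ran from 1780267 to 18590040 counts and were lowest in input_SYN. H4 genes held 51.7% of the members' counts, H1 genes 18.3%, H2B genes 10.9%, H3 genes 9.81% and H2A genes 9.25%. Hist1h1c had the highest mean level, 44.6 CPM, the count relative to the scaled library size, followed by Hist1h1e at 41.8 CPM and then 8 H4 genes between 26.7 and 38.8 CPM. Divided by exonic length, H4 genes led, with Hist1h4k at 97.7, Hist1h4h at 82.5 and Hist1h4m at 73.0 CPM per kb. Hist2h3c1 and Hist1h2aa had no count in any library, Hist2h2aa1 had 1 and Hist1h1t, a testis H1 gene, had 9. All 1825 exonic bases of Hist2h3c1 and all 586 of Hist2h2aa1 are shared with other annotated genes. The low counts of Hist2h3c1 and Hist2h2aa1 therefore do not show that their mRNA was absent.

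Histone genes of a type are near-identical, and single-end reads of this length often matched several of them. Of all windows of a read's length in a gene's exons, the median share found nowhere else among the annotated exons was 99.6% for H1 genes, 81.2% for H4, 63.8% for H2B, 50.6% for H3 and 30.1% for H2A. At least 80% of windows were unique in 19 members, and none were in 5. Hist1h4m and Hist1h4n had totals of 11075 and 10888 counts, and over the 48 libraries their counts differed with a chi-square of 0.278 per degree of freedom, less than counting error between independent counts gives. Including that pair, a value under 1 was found for 41 of 91 pairs of H2A genes, 15 of 105 pairs of H2B genes, 12 of 55 pairs of H3 genes and 6 of 78 pairs of H4 genes, among genes with at least 500 counts. None of 10 H1 pairs was under 1, and Hist1h1c and Hist1h1e differed with 17.0. A value near 1 is what independent counts give, and 72 of the 78 H4 pairs were at or above 1. Pairs far below 1, as for Hist1h4m with Hist1h4n, are not independent measurements, and a count of members called can include such pairs. How the counting treated reads with several matches is not given in the sources used here.

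**Figure D1:**
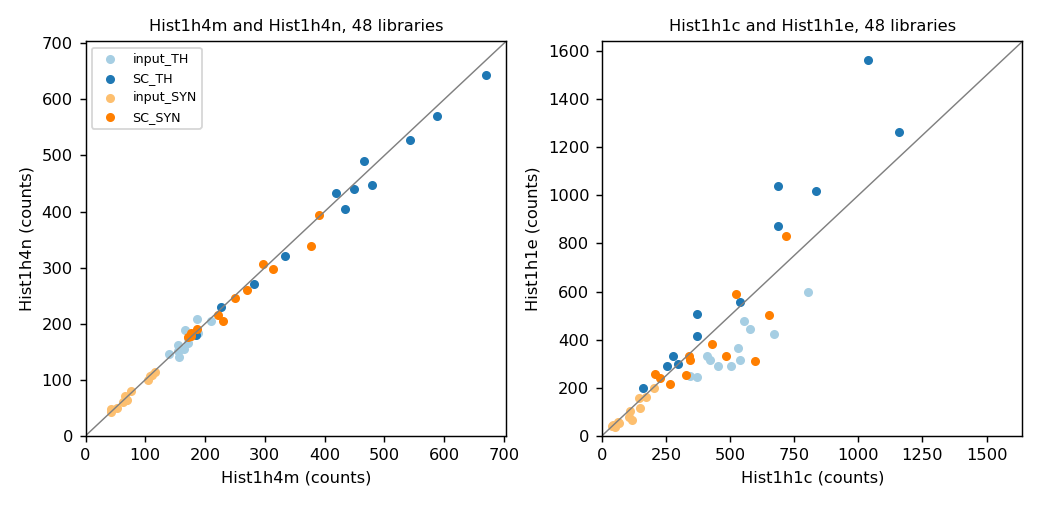
Counts of Hist1h4n against Hist1h4m (left) and of Hist1h1e against Hist1h1c (right) in each of the 48 libraries, coloured by fraction, with the line of equality. The H4 pair lies along the line in every fraction, whereas the H1 pair scatters on both sides of it, with SC_TH above and input_TH below.

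The summed level of the members was higher in the homogenate pellet than in the homogenate at every age. Levels are CPM over library sizes scaled by edgeR's TMM factors across all 48 libraries. In input_TH the sum was 352, 417, 380 and 376 CPM in the 4 mice at 3w, 380, 376, 331 and 378 CPM at 5m, and 478, 551, 390 and 436 CPM at 18m. In SC_TH it was 689, 694, 702 and 810 CPM at 3w, 675, 833, 701 and 887 CPM at 5m, and 1026, 1040, 744 and 774 CPM at 18m. Every SC_TH library stood above every input_TH library. The means were 724 ± 57.8 against 381 ± 27.2 CPM at 3w, 774 ± 102 against 366 ± 23.3 CPM at 5m and 896 ± 159 against 464 ± 68.6 CPM at 18m (SD, n = 4), differences of 0.92, 1.07 and 0.94 on the log2 scale. In homogenate the 18m mice lay above all 5m mice, by 0.33 in log2, while the 3w and 5m mice overlapped.

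In input_SYN the sum was 609, 530, 552 and 676 CPM at 3w, 534, 611, 558 and 616 CPM at 5m, and 467, 552, 440 and 506 CPM at 18m. In SC_SYN it was 1046, 805, 901 and 799 CPM at 3w, 1014, 763, 704 and 654 CPM at 5m, and 698, 607, 564 and 626 CPM at 18m. At each age all 4 pellet libraries lay above all 4 input libraries, most narrowly at 18m. The mean log2 difference was 0.58 at 3w, 0.42 at 5m and 0.34 at 18m. The SC_SYN mean was 888 ± 115 CPM at 3w, 784 ± 160 CPM at 5m and 624 ± 56.1 CPM at 18m, and all 18m mice lay below all 3w mice, so the means ran the other way from those in homogenate. Other markers moved in the same SC_SYN libraries. The 6 mature oligodendrocyte markers summed to 8089 to 9768 CPM at 3w, 3312 to 3588 CPM at 5m and 2804 to 3680 CPM at 18m, and the 5 of newly formed oligodendrocytes to 1574 to 1786, 860 to 1153 and 911 to 1020 CPM. The 9 precursor markers summed to 668 to 904, 570 to 774 and 448 to 582 CPM. The 6 nuclear long non-coding RNAs went the other way, with 855 to 1512, 1064 to 2258 and 2244 to 3501 CPM. No marker of these lists was at 0, and their part in the histone sums was not tested. No p-value is given for these sums.

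**Figure D2:**
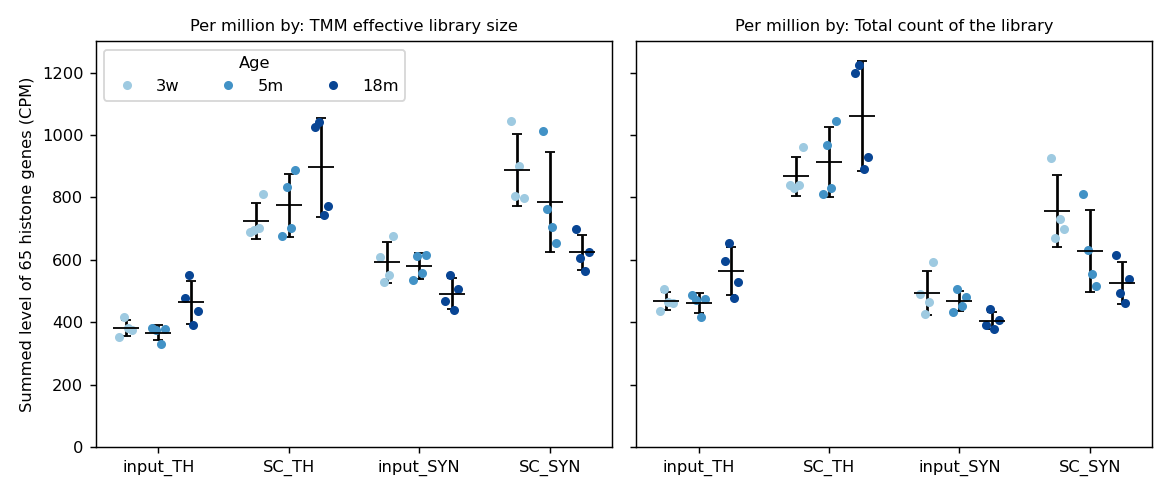
Summed level of the 65 histone genes in CPM, by fraction and age, with each point 1 mouse and bars the mean ± SD (n = 4), scaled by TMM (left) or by the total count of each library (right). On both scales SC_TH exceeds input_TH and the synaptosome pellet falls in mean from 3w to 18m, whereas the height of the synaptosome libraries relative to the homogenate libraries depends on the scale.

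The spread between mice differed by histone type in synaptosomes. H3 genes summed to 147, 20.0, 50.6 and 92.2 CPM in the 4 SC_SYN mice at 3w, and H2A genes to 167, 38.1, 84.5 and 112 CPM. The first mouse was highest and the second lowest for both types. H4 genes summed to 412, 537, 583 and 375 CPM in the same libraries, in a different order. H1 genes ranged only from 109 to 166 CPM there.

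Histone mRNAs were more abundant in the homogenate pellet than in homogenate for most members tested. With edgeR's quasi-likelihood test, Benjamini-Hochberg adjustment over all genes and a threshold of 0.05, 34 of 61 members tested were higher in SC_TH than in input_TH at 3w (55.7%), where 26.1% of all genes tested were. At 5m 53 of 61 were higher (86.9%), against 29.9% of all genes, and at 18m 55 of 61 (90.2%), against 31.3%. Lower were 2 members at 3w (26.6% of all genes), 1 at 5m (32.2%) and 0 at 18m (32.7%). The members' median log2 fold change was 0.70 at 3w, 1.00 at 5m and 1.04 at 18m, and the median over all genes tested lay between -0.05 and -0.01. Among the 17 tested members with at least 80% unique windows, a grouping chosen after seeing the data, 7, 12 and 13 were higher at the 3 ages.

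H4 genes rose most uniformly, with 12 of 13 higher at 3w and 13 of 13 at 5m and at 18m. Hist1h4m measured 9.41, 11.3, 12.98 and 13.5 CPM in input_TH at 3w and 41.1, 53.9, 39.2 and 50.9 CPM in SC_TH, with no overlap. Its log2 fold change was 1.98 at 3w and 1.84 at 5m, and that of Hist1h4n, with almost the same counts, 1.96 and 1.82. Hist2h4, all of whose windows are unique and which was chosen after its values were seen, showed 1.01 (SE 0.178, adjusted p = 2.9e-05 by edgeR) at 3w and 0.78 (SE 0.164, adjusted p = 0.000184) at 5m. Hist4h4, the member on chromosome 6, was higher by 1.21, 0.80 and 0.90 at the 3 ages.

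H3 genes, which encode the canonical H3 proteins, were higher for 8, 11 and 11 of 11 members tested. H2B genes were higher for 8, 14 and 15 of 16 and H2A genes for 4, 12 and 12 of 16. Hist1h3c measured 2.75, 2.77, 1.83 and 1.73 CPM in input_TH at 3w and 3.64, 3.25, 4.34 and 4.96 CPM in SC_TH, again without overlap. The largest H2B fold changes at 18m among members with enough counts were 2.13 for Hist1h2bj, 1.92 for Hist1h2bq and 1.92 for Hist2h2bb. Hist2h2bb shares every one of its exonic positions with other annotated genes on both strands, Gm42743 and Gm20628, and the counting did not use strand, so its counts cannot be assigned to it alone.

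The H1 linker histones, which bind DNA between nucleosomes, were split. Hist1h1e measured 25.8, 29.8, 24.2 and 26.0 CPM in input_TH at 3w against 54.1, 55.4, 59.3 and 54.5 CPM in SC_TH, and was higher in the pellet by 1.10, 1.29 and 1.34 at the 3 ages (adjusted p = 5.25e-06, 2.62e-07 and 3.78e-08 by edgeR). Hist1h1d was higher by 1.08, 1.47 and 1.43. Hist1h1c was higher by 0.51 at 5m and 0.49 at 18m, and its difference of 0.32 at 3w did not pass (adjusted p = 0.0732). Hist1h1a, whose differences were -0.27, 0.21 and 0.31, passed at no age. Hist1h1e shares 496 exonic bases with Hist1h2be and Gm11398, while Hist1h1c, Hist1h1d and Hist1h1a overlap no other gene.

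Hist2h2be went the other way. This H2B gene has no stem-loop match, and every one of its 2520 windows was unique. It measured 4.83, 3.50, 3.25 and 3.70 CPM in input_TH at 3w and 2.73, 2.87, 1.88 and 1.93 CPM in SC_TH, so all pellet values lay below all input values. The log2 fold change was -0.71 (SE 0.228, adjusted p = 0.011 by edgeR) at 3w, -0.42 (SE 0.176, adjusted p = 0.039) at 5m and -0.22 (adjusted p = 0.274) at 18m. The 5m call was kept in 4 of its 10 alternatives. The other member lower in the pellet at 3w was Hist2h2ab, named after its values were seen, with 7 to 15 counts in input_TH and 1 to 3 in SC_TH.

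Members with a stem-loop match were higher in SC_TH in 22, 37 and 38 of 39 tested at 3w, 5m and 18m, and none was lower. Those without a match were higher in 12, 16 and 17 of 22, with 2, 1 and 0 lower. Of all genes tested 26.1%, 29.9% and 31.3% were higher and 26.6%, 32.2% and 32.7% lower. At 3w the shares of members higher with and without a match were close. Most of the 22 had too few annotated bases after the stop to hold a match, so whether they have a stem-loop is not known here. Hist2h2ab, lower at 3w, had 0 such bases. The difference between members with and without a match was not tested.

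In synaptosomes few members passed when pellet was compared with input. At 3w 7 of 60 tested were higher in SC_SYN (9.04% of all genes tested were higher), at 5m 3 of 60 (9.66%) and at 18m 5 of 60 (5.88%), and no member was lower (9.5%, 10.3% and 6.7% of all genes). A fit that kept the mouse as a block called 11, 5 and 6. The shares are near the background at 3w and 18m and below it at 5m. The members' medians were 0.46, 0.34 and 0.38, and input_SYN libraries were the shallowest. H1 genes made up 2, 3 and 4 of the calls.

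Hist1h1e was 32.1, 28.3, 22.7 and 25.03 CPM in input_SYN at 3w and 65.4, 49.6, 45.2 and 45.5 CPM in SC_SYN. It was higher in the pellet by 0.89, 0.83 and 0.89 at the 3 ages (adjusted p = 0.000645, 0.000886 and 0.000486 by edgeR), without overlap at any age. Hist1h1c was higher by 0.82, 0.91 and 0.72 (adjusted p = 0.00775, 0.00229 and 0.0176). Hist1h1a passed at 18m with 1.81 (SE 0.394, adjusted p = 0.00312), where it had only 3 to 6 counts in each input_SYN library.

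**Figure D3:**
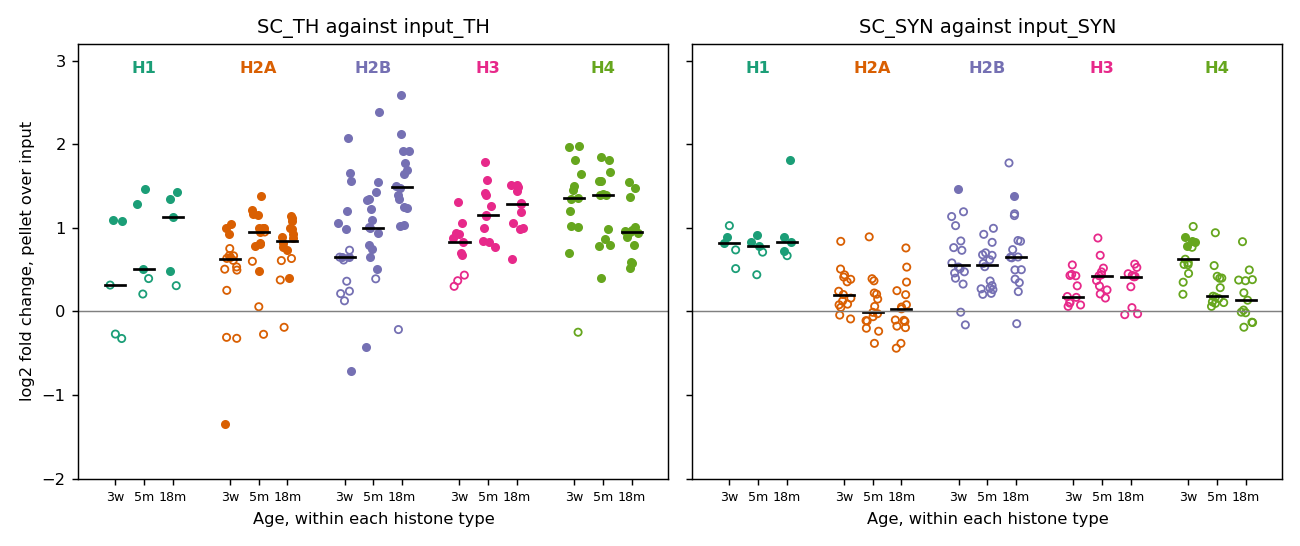
Log2 fold change of pellet over input for each member tested, by histone type and age, in homogenate (left) and synaptosomes (right). Filled points passed an adjusted p of 0.05, open points did not, and bars are medians. In homogenate most points are filled and above 0 from 5m on, with Hist2h2be the filled H2B point below 0, while in synaptosomes filled points are few and mostly H1 or H4 genes.

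Between 3w and 5m few members changed. In input_TH 1 of 58 tested was higher and 0 lower, where 4.76% of all genes were higher and 7.05% lower. An unadjusted p under 0.05 was found for 13 members and for 4617 of all 18078 genes tested. In SC_TH 3 of 59 were higher and 0 lower, where 9.48% and 8.46% of all genes were. In SC_SYN 1 of 60 was higher and 1 lower, each against 4.02% of all genes. In input_SYN 0 of 47 passed in edgeR or DESeq2, where 3.22% of all genes did. Of these members 2 had an unadjusted p under 0.05, as had 2197 of all 12975 genes tested. Signs leaned downward in SC_SYN, where 51 of 60 fold changes were negative with a median of -0.35. The median over all genes tested there was -0.006.

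Hist2h2be accounted for a call in each of the 3 fractions with any. It rose in SC_SYN from 4.38, 4.71, 5.44 and 6.06 CPM at 3w to 10.7, 10.4, 10.3 and 11.3 CPM at 5m. These groups did not come near each other, and the log2 fold change was 1.01 (SE 0.167, adjusted p = 0.00266 by edgeR), kept in 14 of 14 alternatives. In SC_TH it rose from 2.73, 2.87, 1.88 and 1.93 to 3.58, 4.88, 3.83 and 4.50 CPM, by 0.82 (SE 0.241, adjusted p = 0.0258, kept in 9 of 13 alternatives). In input_TH it rose by 0.52 (SE 0.163, adjusted p = 0.0481), where 1 of the 5m mice overlapped the younger ones, and that call was kept in 6 of 14 alternatives and lost with DESeq2. In input_SYN the difference was 1.15 (SE 0.348, adjusted p = 0.0834). It did not change from 5m to 18m at the threshold in any fraction, with fold changes of -0.19 in input_TH, 0.02 in SC_TH, -0.05 in input_SYN and -0.56 in SC_SYN.

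Hist1h4d, an H4 gene with all windows unique, measured 22.0, 21.4, 31.6 and 27.5 CPM in SC_TH at 3w and 48.1, 30.7, 36.5 and 57.7 CPM at 5m. The groups overlapped in a single pair of mice, and the log2 fold change was 0.76 (SE 0.171, adjusted p = 0.00661 by edgeR), kept in 14 of 14 alternatives. In input_TH its log2 fold change was 0.09 (adjusted p = 0.594 by edgeR). No member passed the interaction of SC_TH with input_TH at this step in edgeR, so the changes of Hist1h4d in SC_TH and input_TH are not shown to differ. The third call in SC_TH was Hist2h2aa2, an H2A gene, at 0.64, kept in 9 of 14 alternatives. It had 0 unique windows, and all 528 of its exonic bases are shared with Gm20632 and Gm47311 on the opposite strand, so its counts cannot be assigned to it alone. Hist1h1a fell in SC_SYN by 0.98 on the log2 scale (SE 0.249, adjusted p = 0.0285 by edgeR), from 5.00, 6.67, 4.18 and 4.73 CPM to 3.60, 2.72, 2.71 and 1.92 CPM, without overlap. This call was kept in 9 of 14 alternatives.

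Between 5m and 18m homogenate levels rose for a set of H1 and H4 genes. In input_TH 13 of 58 members tested were higher (22.4%), where 8.18% of all genes were, and 1 was lower, where 7.35% were. The members' median log2 fold change was 0.13. Those higher comprised 4 of 5 H1 genes, 7 of 13 H4 genes, 1 H2A and 1 H3 gene. Single mice mattered, since the count of members called fell to 4 without mouse 193, 5 without mouse 196 and 7 without mouse 192.

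Hist1h1e measured 22.0, 20.6, 16.3 and 22.0 CPM in input_TH at 5m and 42.5, 37.2, 22.4 and 33.9 CPM at 18m. The lowest 18m mouse was just above the highest 5m mouse, and the log2 fold change was 0.75 (SE 0.149, adjusted p = 0.00514 by edgeR). Hist1h1c went from 38.2, 28.3, 24.7 and 29.5 CPM to 57.2, 48.6, 38.2 and 39.2 CPM, by 0.60 (SE 0.139, adjusted p = 0.01), and its closest mice were almost equal. Hist1h1d rose by 0.63 (adjusted p = 0.0306) and Hist1h1a by 0.59 (adjusted p = 0.0388), both with overlapping groups. Hist1h4d rose from 33.4, 32.0, 33.1 and 34.5 CPM to 43.9, 53.0, 40.6 and 37.2 CPM, by 0.39 (SE 0.09, adjusted p = 0.01), without overlap.

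Of these, Hist1h1e was kept in 14 of 14 alternatives, Hist1h1c in 13, Hist1h1d in 8 and Hist1h1a in 7. Hist2h2aa2, whose counts are shared as above, was higher by 0.52 and Hist1h4b by 0.51, kept in 13 and 9 of 14. The member that fell was Hist3h2a, an H2A gene of the small Hist3 cluster, by 0.42 on the log2 scale (SE 0.12, adjusted p = 0.0257 by edgeR). That call was kept in 8 of 14 alternatives, and 708 of the gene's 2146 exonic bases are shared with Trim17 and Gm44313.

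In SC_TH 5 of 59 members were higher at 18m than at 5m (8.47%), where 0.377% of all genes were, and 0 were lower, where 1.79% were. Hist1h1e went from 53.8, 47.8, 40.8 and 54.3 CPM to 120, 91.5, 63.2 and 68.3 CPM, by 0.80 (SE 0.154, adjusted p = 0.0139 by edgeR), and the groups did not overlap. Hist1h1a went from 5.50, 3.73, 4.51 and 6.55 to 9.41, 7.42, 8.26 and 8.06 CPM, by 0.69 (SE 0.158, adjusted p = 0.03), also without overlap. Hist1h1c rose by 0.58 with overlapping groups (adjusted p = 0.0246), Hist2h2ac by 0.87 and Hist2h2bb by 0.79. Hist1h1e was kept in 13 of 14 alternatives, Hist1h1c in 8, Hist1h1a in 7, Hist2h2bb in 6 and Hist2h2ac in 5 of 13. This count was 0 without mouse 193, 1 without mouse 192 or mouse 195, 2 without mouse 197 or mouse 198 and 3 without mouse 196, so it rests on all 4 old animals and on 2 of the 5m animals.

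No member passed between 5m and 18m in the synaptosome fractions, where almost no gene did. In SC_SYN 0 of 60 passed in edgeR and 1 in DESeq2, where 0.014% of all genes did. An unadjusted p under 0.05 was found for 12 members and for 2474 of all 14240 genes. Of the members' fold changes 47 were negative, with a median of -0.45 against 0.011 over all genes. In input_SYN 0 of 47 passed with either tool, where 0.139% of all genes did. Here 8 members and 1214 of all 12975 genes had an unadjusted p under 0.05. Of the 47 fold changes 41 were negative, and the median over all genes was 0.004.

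The question whether an age change differed between fractions was put to an interaction term. Of 61 members, 1 differed between input_SYN and input_TH from 5m to 18m (2.42% of all genes). This was Hist1h4h, an H4 gene, with 24.5, 28.6, 24.2 and 28.8 CPM in input_TH at 5m and 32.9, 44.6, 31.8 and 31.5 CPM at 18m, where all old mice were higher. In input_SYN it had 37.8, 42.8, 29.6 and 36.4 CPM at 5m and 30.4, 28.9, 31.5 and 29.1 CPM at 18m. The difference of the log2 fold changes was -0.70 (SE 0.186, adjusted p = 0.0411 by edgeR), and it was lost without any one of mice 191 to 196 or mouse 198. DESeq2 called 3 members.

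No member passed in the other interactions in edgeR. For SC_SYN against SC_TH from 5m to 18m 14 members had an unadjusted p under 0.05, as had 2855 of all 16630 genes. After adjustment 0.0% of all genes passed in edgeR, and DESeq2 called 1 member. From 3w to 5m 5 members and 1324 of all genes had such an unadjusted p, and 0.0301% of genes passed after adjustment. For SC_TH against input_TH there were 7 such members at each step. Of all 18416 genes 4027 had such a p from 3w to 5m and 3137 from 5m to 18m. After adjustment 2.33% and 1.78% of genes passed, and DESeq2 called 1 member at the first step. For input_SYN against input_TH from 3w to 5m there were 2 members and 1437 of all 17860 genes, and 0.0224% of genes passed after adjustment. For SC_SYN against input_SYN there were 0 from 3w to 5m and 1 from 5m to 18m. Of all 14301 genes 473 and 393 had such a p, and 0.0% passed after adjustment at either step.

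**Figure D4:**
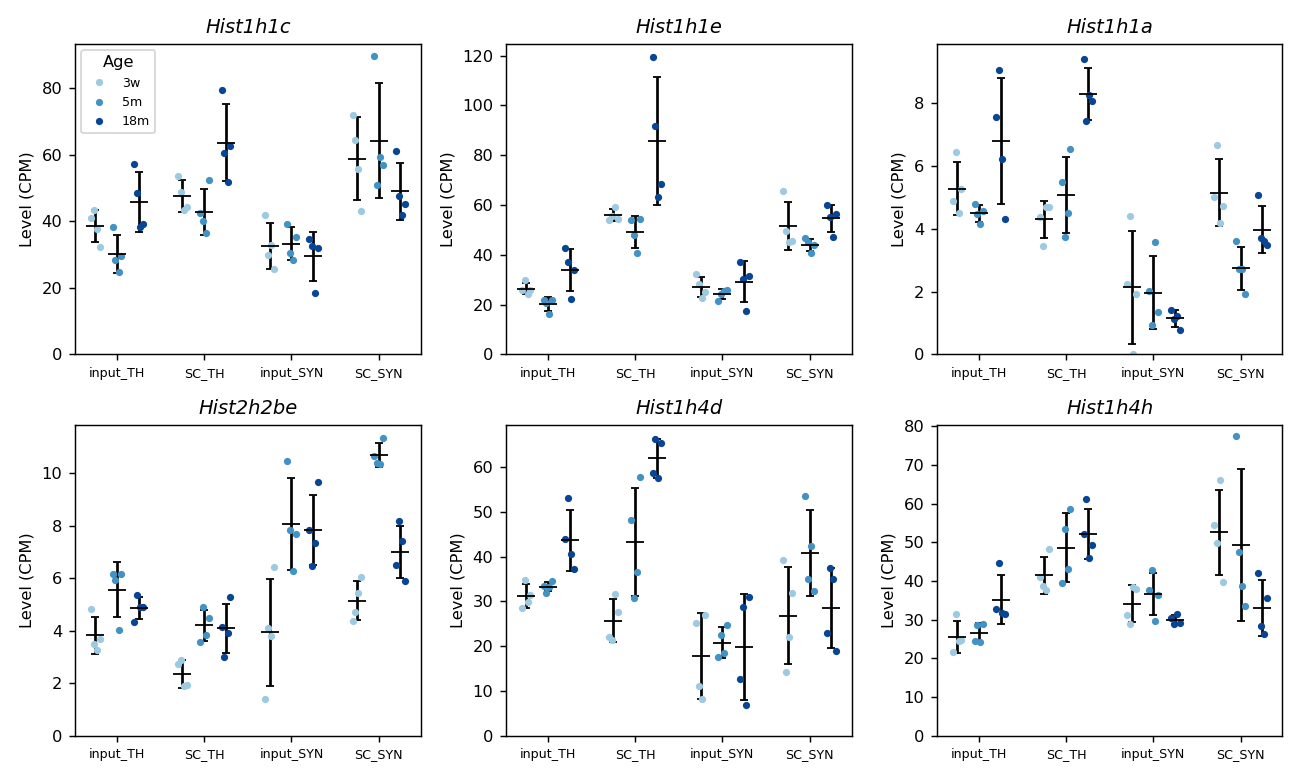
Level in CPM of 6 members by fraction and age, with each point 1 mouse and bars the mean ± SD (n = 4). Hist1h1e and Hist1h1a are highest in SC_TH at 18m, Hist2h2be is highest in SC_SYN at 5m, and Hist1h4d stands lower in input_SYN than in input_TH.

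Whether histone mRNA was higher or lower in synaptosomes than in homogenate depended on the scaling. TMM factors were 1.16 to 1.28 in homogenate libraries and 0.78 to 0.89 in synaptosome libraries, so scaling by library size instead moved the median of all genes by -0.53 to -0.65. With TMM, input_SYN exceeded input_TH for 38 of 61 members at 3w (31.7% of all genes) and fell below it for 2 (39.3%), with 38 and 2 at 5m (32.6% and 40.1%), and 27 and 4 at 18m (32.9% and 39.4%). With library size these counts became 24 higher and 9 lower, 16 and 11, and 3 and 18, so the balance of signs at 18m turned. In the pellets, SC_SYN against SC_TH gave 20 higher (31.1% of all genes) and 0 lower (32.4%) at 3w, 8 and 3 at 5m (32.1% and 35.8%), and 2 and 17 at 18m (29.9% and 32.2%). With library size these became 5 and 4, 1 and 25, and 0 and 36. The shares of all genes above are for TMM, and those for library size are not given here. With library size the median log2 fold change over all genes at 3w, 5m and 18m was -0.75, -0.83 and -0.70 in the inputs. In the pellets it was -0.59, -0.68 and -0.60. The library-size counts of members lower are therefore not shown to exceed those of other genes.

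The histone types differed in these calls under TMM. Higher in input_SYN at 3w were 11 of 16 H2A, 9 of 16 H2B, 8 of 11 H3 and 10 of 13 H4 genes, and no H1 gene. In the pellets at 3w the higher members were 12 H2A and 8 H2B genes. With library size 3 H2A and 2 H2B genes were higher there, and most of the TMM calls were lost without mouse 187. Many H2A pairs are also not independent measurements, so these calls are not separate results. In the pellets at 18m the lower members under TMM were 4 of 5 H1, 7 of 11 H3, 4 of 13 H4 and 2 of 16 H2B genes. H2A genes have the fewest unique windows. Of 17 tested members with at least 80% unique windows, 5, 7 and 5 were higher in input_SYN at 3w, 5m and 18m and 2, 2 and 4 lower. Over all genes 31.7%, 32.6% and 32.9% were higher and 39.3%, 40.1% and 39.4% lower. The counts higher among these 17 were thus near the share over all genes.

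Calls on both scales in the same direction were 24 higher and 2 lower for input_SYN over input_TH at 3w, 16 and 2 at 5m and 3 and 4 at 18m. For SC_SYN over SC_TH they were 5 and 0, 1 and 3, and 0 and 17. The share of all genes called on both scales is not given here, so these counts cannot be set against it. Hist1h1a and Hist1h4d were lower on both scales in the inputs at every age. Hist1h1a was lower in input_SYN than in input_TH at each age, where it fell by 1.04, 1.20 and 2.59 on the log2 scale with TMM. Its input_TH values at 18m were 7.54, 9.06, 6.23 and 4.32 CPM, and its input_SYN values 1.43, 1.14, 1.23 and 0.79 CPM from 3 to 6 counts. Hist1h4d was lower in input_SYN at each age, by 0.80, 0.67 and 1.02 on the log2 scale. Its input_SYN values at 18m were 12.6, 28.7, 6.95 and 30.9 CPM, all below the homogenate values of 37.2 to 53.0 CPM but far apart from each other.

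Hist2h2be was higher in SC_SYN than in SC_TH at each age under TMM, by 1.19, 1.39 and 0.81. At 5m it kept 0.80 with library size (adjusted p = 9.56e-05 by edgeR), and at 18m the difference was 0.28 on that scale and did not pass (adjusted p = 0.122). Hist4h4 was lower in SC_SYN than in SC_TH at 5m by 1.12 on the log2 scale. The member higher at 18m besides Hist2h2be was Hist1h2ba, named after its values were seen.

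**Figure D5:**
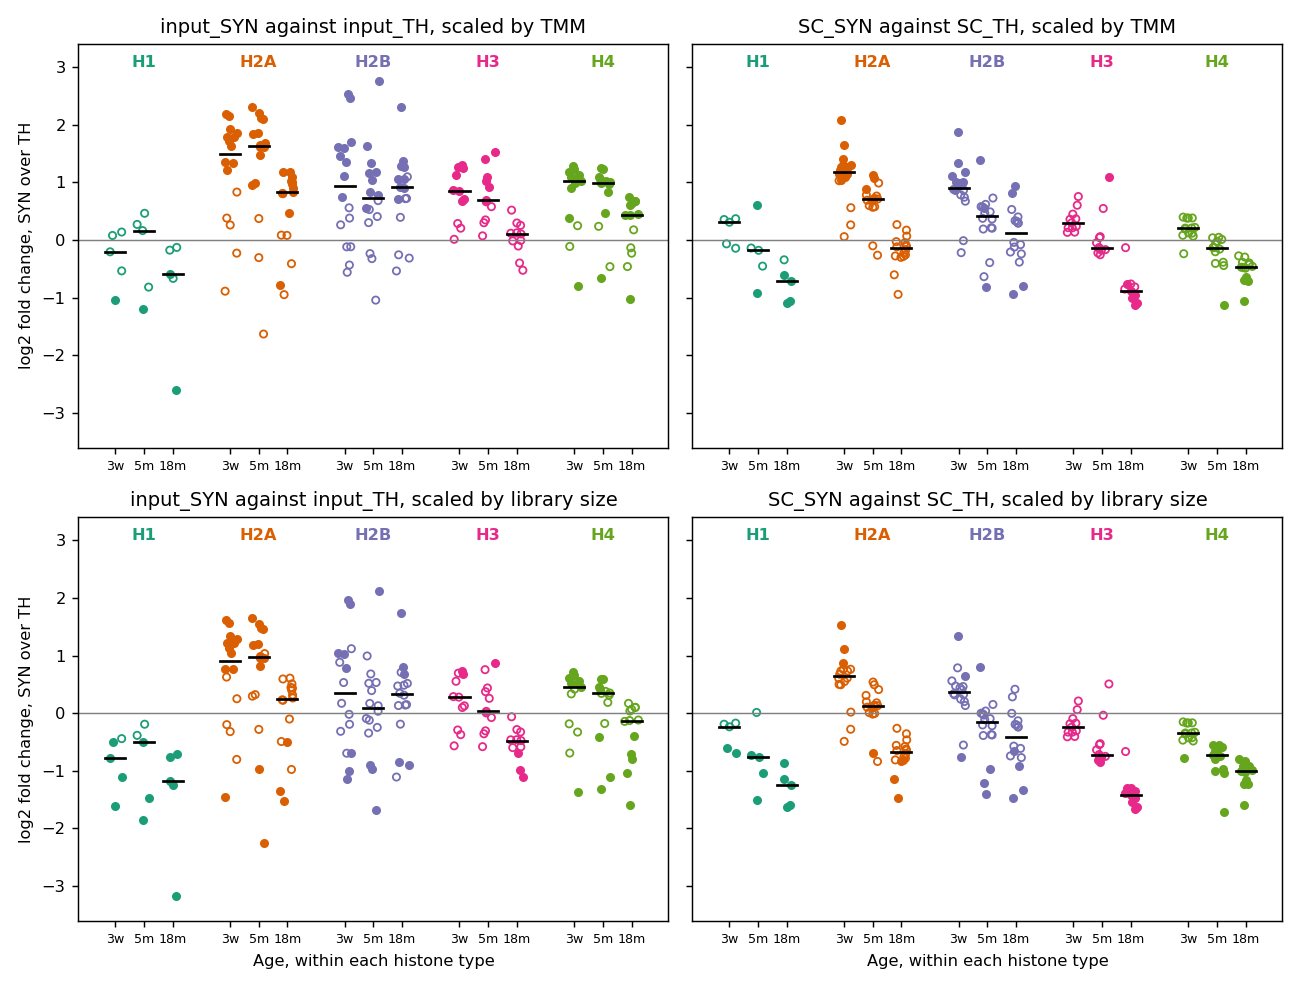
Log2 fold change of synaptosomes over homogenate for each member tested, by histone type and age, for inputs (left) and pellets (right), scaled by TMM (top) or by library size (bottom). Filled points passed an adjusted p of 0.05, open points did not, and bars are medians. The whole pattern shifts down with library size, and the medians in the pellets are lower at 18m than at 3w for every type on both scales.

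The partners of histone mRNA and other histone genes were followed in lists of their own. Slbp, whose protein binds the stem-loop, passed in no age comparison and was higher in SC_TH than in input_TH by 0.32, 0.30 and 0.44. Of 26 genes for histone mRNA 3′ processing and turnover tested there, 12, 11 and 12 were higher, against 26.1%, 29.9% and 31.3% of all genes, and 6, 7 and 5 lower, against 26.6%, 32.2% and 32.7%. Npat, a transcription factor for histone genes, was lower in the pellet by 0.63, 0.44 and 0.27 on the log2 scale. Lsm11, a protein of the U7 particle, fell from 3w to 5m in input_TH by 0.80 and in SC_TH by 0.61 on the log2 scale.

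Genes listed as replication-independent histone genes, most of whose mRNAs are polyadenylated and not confined to S phase, were also higher in the homogenate pellet. This held for 6, 7 and 9 of 11 tested, with 0, 0 and 1 lower, beside the same shares of all genes. The list includes H2afx, which was among the 3 other genes with a stem-loop match. H3f3a, which encodes the variant H3.3, was higher by 2.00, 1.68 and 1.81, its second gene H3f3b by 1.12, 1.01 and 1.03, and H2afz, for the variant H2A.Z, by 0.96, 0.90 and 1.04. Of 15 histone chaperone genes 9, 8 and 10 were higher there and 3, 2 and 4 lower, again beside 26.1%, 29.9% and 31.3% of all genes higher and 26.6%, 32.2% and 32.7% lower.

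Among genes of S phase, Mki67, a marker of cycling cells, fell from 3w to 5m in input_TH by 1.85 on the log2 scale (adjusted p = 0.000227 by edgeR) and Top2a, a topoisomerase of dividing cells, by 2.04 (adjusted p = 2.51e-05). These were the 2 of 28 S phase genes called lower in that comparison, where 7.05% of all genes were, and none was higher. None of the 28 passed from 5m to 18m, where 8.18% of all genes were higher and 7.35% lower. In SC_TH from 3w to 5m Mcm4 and Mcm6 were higher and Mki67 and Top2a lower, of 23 tested, where 9.48% of all genes were higher and 8.46% lower. Among markers of oligodendrocyte precursors, the main dividing cells of the adult cortex, 6 of 9 fell from 3w to 5m in input_TH, with Pdgfra down by 0.46 on the log2 scale. Enpp6, a marker of newly formed oligodendrocytes, fell by 2.19. The summed level of the precursor markers was 323 to 361 CPM at 3w, 205 to 237 CPM at 5m and 252 to 292 CPM at 18m, and 3 of 9 rose at the second step. Their part in the histone levels was not tested.

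Markers of other material also moved with the fractions. The 6 nuclear long non-coding RNAs, none of them at 0, summed to 15820 to 18690 CPM in input_TH, and in SC_TH to 10130 to 13430 CPM at 3w, 7181 to 10850 CPM at 5m and 5067 to 6116 CPM at 18m. They were lower in the pellet in 5, 6 and 6 of 6 genes at 3w, 5m and 18m. The pellet held least of them at 18m, the age with the most histone genes called higher in it and with the highest median SC_TH total. Neuron markers, all 6 detected in every group, summed to 3670 to 4364 CPM in input_TH, 6296 to 7873 CPM in SC_TH and 9041 to 12190 CPM in synaptosomes. Erythroid genes summed to 142 to 510 CPM in input_TH and 21 to 71 CPM in synaptosomes. In synaptosomes 5 of 5 erythroid and 6 of 6 endothelial markers were lower than in homogenate while 6 of 6 astrocyte markers were higher at each age, as were 6 of 7 microglia markers at 3w and 7 of 7 at 5m and 18m, on the TMM scale. What part these had in the histone differences was not tested.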

How the data were processed

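RNA-seq libraries depleted of ribosomal RNA were sequenced as single-end reads on 2 runs, and the labels do not say which library was in which. Per the labels and the study's methods, the authors used bcl2fastq 2.20.0.422, TopHat2 2.1 on GRCm38 and featureCounts without strand, and deposited raw counts per Ensembl gene for 48 libraries. Use of the molecular identifiers of the adaptors is not given in the sources used here. The deposited table was used as it is. Symbols and exons came from GENCODE M21 on GRCm38, and stem-loops were read from that genome.

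Counts were analysed with edgeR 4.0.16 in R 4.3.3 (TMM, its default filter on low counts, quasi-likelihood F test, adjustment over all genes, threshold 0.05). Ages were compared among the 12 libraries of 1 fraction, and fractions and interactions in fits of 24 libraries, giving 28 comparisons. DESeq2 1.42.0 was an alternative, beside library-size scaling, no filter, a minimum of 10 counts in every library, all 48 libraries in one fit, thinned libraries and leaving out each mouse. The scripts were tested on simulated data. Counting intervals between genes assume independent molecules.

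The members and gene lists were chosen with earlier results of these data known. Named members were those with the 6 largest fold changes in each direction and comparison (adjusted p under 0.05, and in the higher group no fewer than 20 counts on average), the 10 with the highest mean level and 11 fixed partner and marker genes. Others are named as chosen after their values were seen, or as examples of a type. Replicates were different mice, and no 2 agreed within sampling noise (chi-square per degree of freedom 1.98 to 32.2 over 72 pairs). The 4 libraries of a mouse are paired by the animal number in the labels. After the group means were taken off, libraries of 1 mouse correlated with r from -0.373 to 0.355, with a median of 0.0761.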

Additional observations from a re-analysis of the deposited data

Results flagged for a closer look

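Within groups of 4 mice, 132 groups of the sum and of the most abundant members were looked at for a mouse far from the other 3, and 9 were found, where chance gives about 1 in 20, or 6.6. The value given is the gap to the nearest mouse as a share of the group's range. The summed level stood apart in input_TH at 5m (0.926), where mouse 193 had 331 CPM and the others 376 to 380 CPM, and in SC_TH at 3w (0.891), where mouse 190 had 810 CPM and the others 689 to 702 CPM. Mouse 196 was high in input_TH at 18m for Hist1h4h (0.894), at 44.6 CPM against 31.5 to 32.9 CPM, and for Hist1h4b (0.942), at 26.6 CPM against 15.7 to 16.4 CPM. Mouse 187 was low in input_TH at 3w for Hist1h4b (0.905), at 10.9 CPM against 14.9 to 15.3 CPM, and for Hist1h4a (0.84), at 9.65 CPM against 12.7 to 13.2 CPM. Mouse 197 stood apart in input_SYN at 18m for Hist1h1c (0.835), at 18.4 CPM against 32.0 to 34.7 CPM, and for Hist1h4a (0.975), at 31.1 CPM against 22.8 to 23.0 CPM. Mouse 192 was high in input_TH at 5m for Hist1h4m (0.857), at 13.6 CPM against 11.4 to 11.8 CPM. Many windows of H4 genes occur in other H4 genes, so their flags may not be independent.

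The change of Hist1h4h from 5m to 18m differed between input_SYN and input_TH by -0.70 in log2 in an interaction test (adjusted p = 0.0411 by edgeR). That call was kept in 5 of 15 alternatives, and 2.42% of all genes passed the same test. Mouse 196, flagged above for Hist1h4h in input_TH at 18m, is among the mice compared.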

How the results depend on the processing

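Depth limits the synaptosome inputs most, and shared reads limit what single H2A, H2B and H3 genes can show. Of 1100 alternative values for named members, 923 kept their call, 177 missed the threshold in the same direction and 0 reversed; 119 of the 177 came from leaving out 1 mouse. Of 296 alternative counts and sums 217 stayed close to the reported value, and of 288 with 1 mouse left out 251 did. The causes of the shifts were not tested.

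Numbers of members called were as follows where they moved by over 1.5 times. For input_SYN over input_TH at 3w, 5m and 18m they were 11, 11 and 9 with at least 10 counts in every library and 12, 13 and 8 in thinned libraries, both of which test fewer or shallower counts. SC_SYN over SC_TH gave 9, 26 and 36 with library size in place of TMM, 6 at 3w and 5 at 5m with at least 10 counts, 6 at 5m when thinned and 29 at 18m with all 48 libraries in one fit. SC_TH over input_TH gave 35 at 5m and 34 at 18m with at least 10 counts. SC_SYN over input_SYN gave 14, 6 and 9 with all libraries, 13 at 3w and 6 at 5m without a filter, 11 at 3w with library size, and 2 (10 counts) and 3 (thinned) at 18m. With the mouse as replicate block it gave 11 at 3w and 5 at 5m, the interaction of input_SYN with input_TH from 5m to 18m gave 3, and the block moved no other count by over 1.5 times. That interaction also gave 3 with DESeq2, 4 without a filter and 0 with all libraries, library size or thinning.

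From 3w to 5m input_TH gave 0 with all libraries or DESeq2 and 4 without a filter, SC_TH 8 without a filter, input_SYN 1 with all libraries or no filter, and SC_SYN 4 with all libraries and 1 when thinned. From 5m to 18m input_TH gave 1 with all libraries, SC_TH 1 with all libraries or thinning and 10 without a filter, and SC_SYN 6 with all libraries and 1 with DESeq2 or no filter. The interaction of SC_SYN with SC_TH from 5m to 18m gave 1 with all libraries or DESeq2. That of SC_TH with input_TH gave 1 from 5m to 18m and 2 from 3w to 5m without a filter, and 1 with DESeq2 at the latter.

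Leaving out 1 mouse gave 4 to 16 for input_TH from 5m to 18m, 0 to 3 from 3w to 5m, 0 to 7 for SC_TH from 5m to 18m, 1 to 6 from 3w to 5m (1 without mouse 194, 6 without mouse 192 or 193), 1 to 3 for SC_SYN and 0 to 1 for input_SYN from 3w to 5m. It gave 2 to 7 at 3w and 2 to 4 at 18m for SC_SYN over input_SYN, 4 to 25 at 3w and 8 to 19 at 5m for SC_SYN over SC_TH, 0 to 1 for the Hist1h4h interaction, and 0 to 3 and 0 to 1 for SC_TH with input_TH at the later and earlier step. The low value at 3w, 4, came without mouse 187, and the 19 at 5m without mouse 194.

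Among members with at least 80% unique windows, an alternative chosen after seeing the data, 41.2% were called for input_SYN over input_TH at 3w, 17.6%, 29.4% and 47.1% for SC_SYN over SC_TH at 3w, 5m and 18m, and 17.6%, 11.8% and 17.6% for SC_SYN over input_SYN. These shares cover both directions. Of all genes 31.7% were higher and 39.3% lower for input_SYN over input_TH at 3w. For SC_SYN over SC_TH these shares were 31.1% and 32.4%, 32.1% and 35.8%, and 29.9% and 32.2%. For SC_SYN over input_SYN they were 9.04% and 9.5%, 9.66% and 10.3%, and 5.88% and 6.7%. By age the share of these members called was 5.88%, 11.8% and 11.8% for input_TH, SC_TH and SC_SYN from 3w to 5m and 17.6% for SC_TH from 5m to 18m, and 0.0% for the Hist1h4h interaction. From 3w to 5m 4.76% of all genes were higher and 7.05% lower in input_TH. In SC_TH 9.48% and 8.46% were, and in SC_SYN 4.02% in each direction. In SC_TH from 5m to 18m 0.377% were higher and 1.79% lower, and 2.42% passed the interaction.

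The log2 difference of the sum for input_SYN over input_TH was 0.073, 0.019 and -0.472 with library size and 0.27, 0.36 and -0.18 among these members. For SC_SYN over SC_TH it was -0.20, -0.56 and -1.004 with library size, which turned the direction at 3w and 5m. For SC_TH over input_TH it was 0.70 at 3w and 0.81 at 5m among these members and 0.62 and 0.85 as a mean of log2 levels. That mean was 0.40 for SC_SYN over input_SYN at 3w, -0.40 for input_SYN and 0.11 for input_TH from 5m to 18m.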
